A study of Mus musculus with 12 samples.

Results

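The 9 genes described here encode proteins of fatty acid uptake into the muscle fibre, of entry into mitochondria and of the control of that entry. These are Cd36, Fabp3, Slc27a1, Acsl1, Cpt1b, Cpt2, Crat, Mlycd and Acacb. They were chosen by gene symbol, with earlier results of these data known. All 9 were found among the 22607 genes of the count table and passed the filter on low counts. Cd36 and Slc27a1 (FATP1) take up long-chain fatty acids at the cell surface, Fabp3 binds them in the cytosol, and Acsl1 joins them to coenzyme A. Cpt1b passes the acyl group to carnitine at the outer mitochondrial membrane, Cpt2 passes it back to coenzyme A at the inner one, and Crat does the same for acetyl and other short groups. Malonyl-CoA inhibits the Cpt1 enzymes. Acacb, the acetyl-CoA carboxylase of the outer mitochondrial membrane, makes it, and Mlycd, malonyl-CoA decarboxylase, breaks it down.

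The genes were followed in tibialis anterior, a fast shin muscle, of male C57BL/6 mice aged 13 weeks. All muscles had been transduced with a vector, either one for expression of Crtc2, which coactivates the transcription factor Creb1, or an empty one with GFP alone. The mice had undergone alternate day fasting (ADF) for 3 rounds or had been fed ad libitum. The 12 RNA-seq libraries fell into 4 groups of 3: ADF Crtc2, ADF GFP, fed Crtc2 and fed GFP. The labels do not give the vector's promoter or the cells it reached, and state neither that a group's libraries are from different animals nor whether Crtc2 and GFP muscles share animals. The p-values therefore rest on a spread between libraries that may be technical only.

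Libraries held 24232450 to 34610417 counts. Among low counts, 68.9% to 74.7% were even in each library, so a count may not stand for a single fragment. The cause was not tested. The summed level of the muscle fibre markers was 130200 to 218300 CPM (counts scaled to library size, with trimmed-mean scaling factors) across the 12 libraries. Crtc2 itself lay between 31.4 and 42.8 CPM in ADF Crtc2 muscle against 16.1 to 23.6 CPM in ADF GFP muscle, and between 58.2 and 77.9 CPM in fed Crtc2 muscle against 17.3 to 29.2 CPM in fed GFP muscle. It was higher with the Crtc2 vector over both diets, by 1.23 ± 0.20 (log2 ± SE, edgeR quasi-likelihood adjusted p = 0.00578), while neither diet alone passed (adjusted p = 0.127 under ADF and 0.134 in fed muscle). One library, fed Crtc2 replicate 1, stood apart from the other 11 on the second principal component (-55.4, against -16.3 to 28.3). The protocols name both NEBNext Ultra II and TruSeq kits without assigning them, so a preparation difference that followed diet or vector cannot be told apart from either.

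Under ADF most of the set was higher than in fed muscle with either vector, and none of the 9 genes fell in any comparison. Because the 9 were chosen with earlier results of these data known, the shares over all genes describe the background only. They are no test of the set. In Crtc2 muscle 8 of the 9 genes rose under ADF, all but Cpt1b, where 6.3% of the 16007 genes tested rose and 4.68% fell (edgeR, Benjamini-Hochberg adjusted p under 0.05). In GFP muscle 5 of the 9 rose, namely Cd36, Slc27a1, Acsl1, Mlycd and Acacb, where 4.06% of all genes rose and 3.06% fell. Over both vectors, which uses the same libraries again, 7 rose, all but Cpt1b and Cpt2, where 9.38% of all genes rose and 8.64% fell. The median log2 fold change of the 9 genes was 1.27 in Crtc2 muscle and 1.19 in GFP muscle, beside -0.13 and -0.01 over all genes. In Crtc2 muscle 8 of the 9 had all ADF libraries above all fed libraries (14.8% of all genes did), and in GFP muscle 5 of the 9 had (14.3%). Over both vectors 4 of the 9, Slc27a1, Acsl1, Mlycd and Acacb, had all 6 ADF libraries above all 6 fed ones (5.63% of all genes did). Without fed Crtc2 replicate 1, 6 genes passed in Crtc2 muscle, with Cd36 (adjusted p = 0.0963) and Cpt2 (adjusted p = 0.0729) no longer among them, and the same 7 passed over both vectors.

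**Figure D1:**
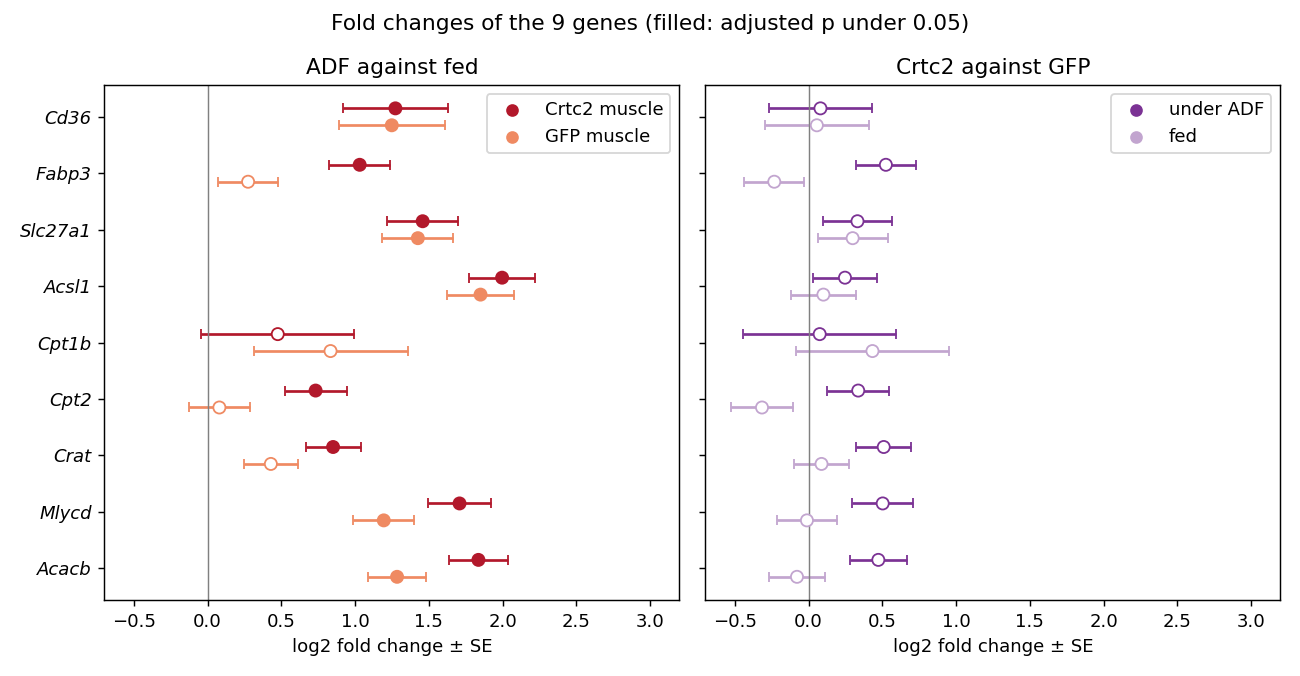
Log2 fold change ± SE of each gene for ADF against fed (left; Crtc2 muscle above GFP muscle) and for Crtc2 against GFP (right; under ADF above fed), with filled points for adjusted p under 0.05. Filled points appear for 8 genes in Crtc2 muscle and 5 in GFP muscle on the left, and for 0 genes on the right.

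Promoter sequence is shown for the 5 genes that rose under ADF with each vector, since they moved together. Each window is the 250 bases before an annotated start in RefSeq on GRCm38.p6, read 5' to 3' on the gene's strand, and which start the muscle used was not measured. Of the 9 genes, 7 had windows, 10 in all. Both windows of Acsl1 are shown, the first of them directly before the annotated gene start and without a marked match. The second window of Acsl1 and the windows of Cd36 and Acacb lie inside the annotated gene. They precede starts within it, so matches there are not upstream of the whole gene. Of the 3 windows of Slc27a1 the one nearest before the gene start is shown, and of the other 2, 1 has CCAAT and 1 does not. Capitals mark CCAAT or its reverse complement ATTGG, and in the Cd36 window also TGACCT, the reverse complement of AGGTCA.
Acsl1, chr8:46470787-46471036 (plus strand): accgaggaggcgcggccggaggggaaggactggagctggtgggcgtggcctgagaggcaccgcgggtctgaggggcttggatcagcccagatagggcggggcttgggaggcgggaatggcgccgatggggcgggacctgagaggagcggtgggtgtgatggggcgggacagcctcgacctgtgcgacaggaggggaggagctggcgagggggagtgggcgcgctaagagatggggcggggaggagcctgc
Acsl1, chr8:46490716-46490965 (plus strand): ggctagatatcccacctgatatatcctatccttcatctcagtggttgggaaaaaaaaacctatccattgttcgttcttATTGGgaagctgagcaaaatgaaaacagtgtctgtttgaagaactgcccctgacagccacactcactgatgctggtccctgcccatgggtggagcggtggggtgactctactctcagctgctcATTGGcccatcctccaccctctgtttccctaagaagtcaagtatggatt
Slc27a1, chr8:71568621-71568870 (plus strand): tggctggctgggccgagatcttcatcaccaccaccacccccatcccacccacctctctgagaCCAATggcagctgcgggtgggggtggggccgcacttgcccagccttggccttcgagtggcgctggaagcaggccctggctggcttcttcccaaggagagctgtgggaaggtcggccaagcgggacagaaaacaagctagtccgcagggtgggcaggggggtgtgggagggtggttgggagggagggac
Cd36, chr5:17835897-17836146 (minus strand): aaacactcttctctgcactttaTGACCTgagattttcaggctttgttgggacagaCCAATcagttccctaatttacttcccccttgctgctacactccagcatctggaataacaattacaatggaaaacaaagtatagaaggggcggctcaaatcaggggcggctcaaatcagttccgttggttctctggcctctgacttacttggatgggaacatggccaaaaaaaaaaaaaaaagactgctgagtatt
Acacb, chr5:114165268-114165517 (plus strand): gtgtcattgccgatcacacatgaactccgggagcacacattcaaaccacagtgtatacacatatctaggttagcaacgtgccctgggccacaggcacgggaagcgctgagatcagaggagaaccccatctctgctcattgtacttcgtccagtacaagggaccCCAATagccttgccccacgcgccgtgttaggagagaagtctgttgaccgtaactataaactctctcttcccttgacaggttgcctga
Mlycd, chr8:119394644-119394893 (plus strand): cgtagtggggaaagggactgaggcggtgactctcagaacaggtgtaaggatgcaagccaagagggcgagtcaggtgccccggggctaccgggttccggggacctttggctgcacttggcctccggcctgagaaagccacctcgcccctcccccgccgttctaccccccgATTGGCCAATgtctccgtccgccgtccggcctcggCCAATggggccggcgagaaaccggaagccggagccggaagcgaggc
The motifs TGACGTCA (the full cAMP response element, to which Creb1 binds), TGACG (its shorter form, contained in the full one), AGGTCA (the core element of nuclear receptors such as PPAR) and CCAAT were searched on both strands. TGACGTCA was in 0 of the 10 windows, and in 1.55% of all 32851 windows in the table. TGACG was in 1, that of Fabp3, against 17.8% of all windows. AGGTCA was in 1, that of Cd36, starting 228 bases before the start site of that window, which lies inside the gene, against 14% of all windows. CCAAT was in 6 of the 10 windows, 2 of them of Slc27a1, against 33.8% of all. It was absent from the Cpt2 and Fabp3 windows, from 1 window of Slc27a1 and from the Acsl1 window directly before the gene start. Windows of the same gene are not independent, and the share was not tested. These are matches of letters in short windows and say nothing of binding.

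Of the uptake genes, Slc27a1 rose with clear separation of the diets, Cd36 rose with a wide spread, and Fabp3 passed in Crtc2 muscle but not in GFP muscle. Slc27a1 (GRCm38, chr8:71568882-71587302, plus strand) had 179, 109 and 164 CPM in ADF Crtc2 muscle against 59.2, 52.9 and 52.5 CPM in fed Crtc2 muscle. With GFP, Slc27a1 had 160.0, 119 and 80.0 CPM under ADF against 41.9, 45.6 and 46.2 CPM when fed. Every ADF library was above every fed library, while the ADF libraries varied among themselves far more than the fed ones (SD 37.3 and 40.0 CPM, against 3.74 and 2.33 CPM). The log2 fold change was 1.46 ± 0.24 in Crtc2 muscle (adjusted p = 0.000308) and 1.43 ± 0.24 in GFP muscle (adjusted p = 0.000624).

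Cd36 (chr5:17781690-17888801, minus strand) had 226, 190.3 and 289 CPM in ADF Crtc2 muscle against 102, 124 and 65.7 CPM in fed Crtc2 muscle, and these groups did not overlap. In GFP muscle it had 140.3, 319.8 and 207 CPM under ADF against 55.6, 81.7 and 143 CPM when fed, where the lowest ADF library lay just under the highest fed one. The log2 fold change was 1.27 ± 0.36 in Crtc2 muscle (adjusted p = 0.0332) and 1.25 ± 0.36 in GFP muscle (adjusted p = 0.0499), and over both vectors it was 1.26 ± 0.25 (adjusted p = 0.00259). The calls within a vector hung on single libraries. In GFP muscle the adjusted p was 0.199 and 0.109 without ADF GFP replicates 2 and 3, and 0.151 and 0.166 without fed GFP replicates 1 and 2. In Crtc2 muscle it was 0.0897 and 0.127 without ADF Crtc2 replicates 1 and 3, and 0.0963 and 0.131 without fed Crtc2 replicates 1 and 3. The rise over both vectors passed without any one of the 12 libraries.

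Fabp3 (chr4:130308595-130315463, plus strand), the fatty acid binding protein of heart and muscle, had 603, 646 and 819 CPM in ADF Crtc2 muscle against 375, 375 and 261 CPM in fed Crtc2 muscle, with no overlap. In GFP muscle it had 593, 461 and 383 CPM under ADF against 348, 346 and 494 CPM when fed, and the diets overlapped. Fabp3 rose by 1.03 ± 0.21 in Crtc2 muscle (adjusted p = 0.0019), and its log2 fold change was 0.28 ± 0.20 in GFP muscle (adjusted p = 0.524, 95% interval -0.15 to 0.70). With a correction for exon length the GFP value became 0.71 and passed (adjusted p = 0.0445); Fabp3 has the shortest exon sequence of the set, 823 bases. A processed copy, Fabp3-ps1, had its own 225 to 862 counts per library, against 7058 to 23032 for Fabp3, so reads shared between them are possible. Fabp3-ps1 was looked up after the values of Fabp3 were seen.

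**Figure D2:**
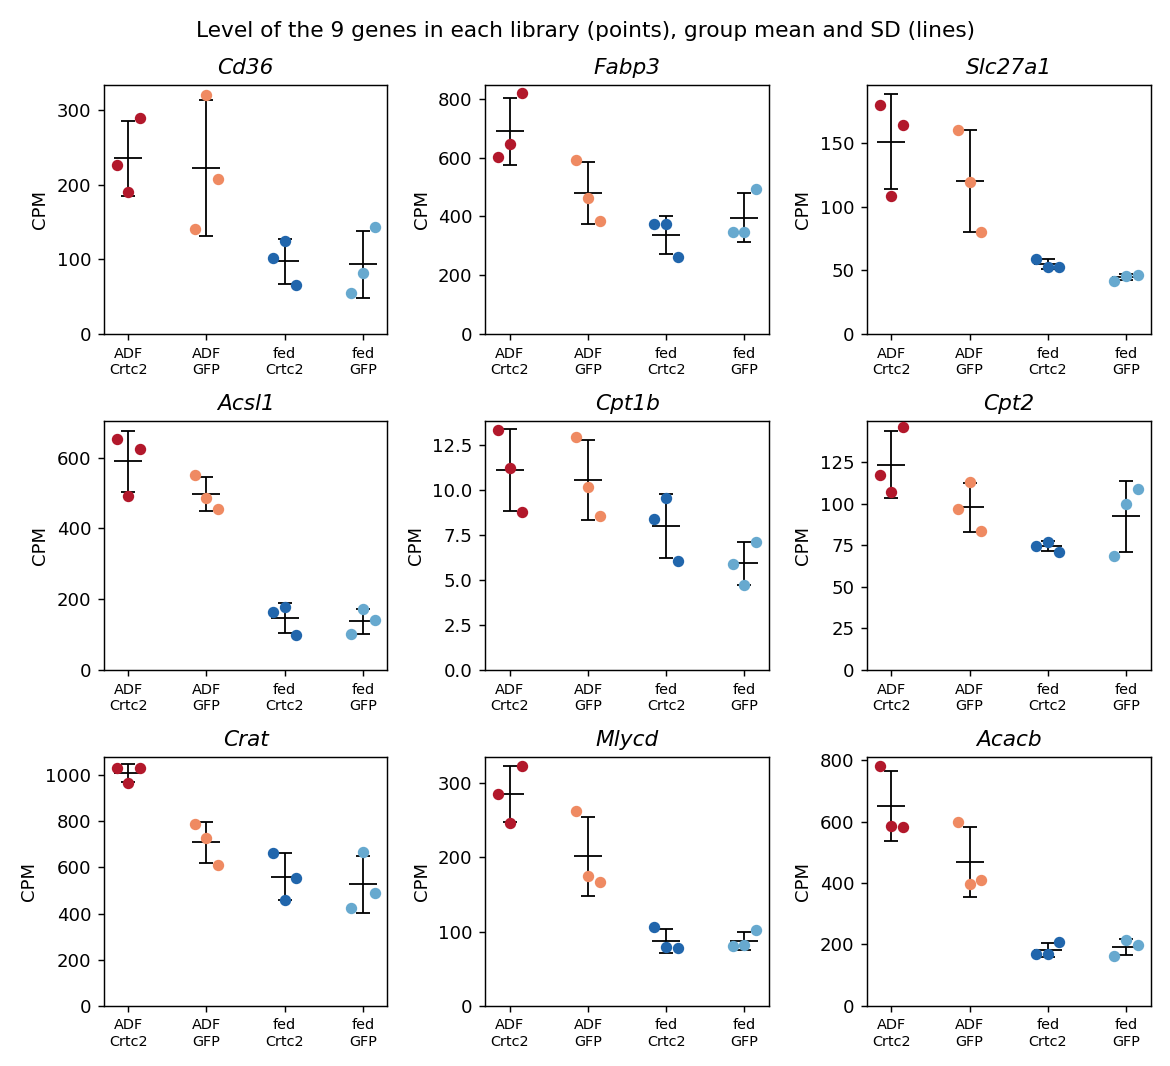
CPM of each of the 9 genes in each library (points), with group mean and SD (lines), for ADF Crtc2, ADF GFP, fed Crtc2 and fed GFP muscle. For Slc27a1, Acsl1, Mlycd and Acacb all 6 ADF libraries lie above all 6 fed libraries.

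Acsl1 rose with both vectors, with no overlap between the diets. The main long-chain acyl-CoA synthetase of muscle (chr8:46471037-46536051, plus strand), it had 652, 492 and 626 CPM in ADF Crtc2 muscle against 165, 179 and 99.0 CPM in fed Crtc2 muscle. GFP muscle had 551, 485 and 455 CPM under ADF against 101, 172 and 140.2 CPM when fed. The lowest ADF library held more than 2 times the CPM of the highest fed one with either vector. Acsl1 rose by 2.00 ± 0.23 in Crtc2 muscle (3.99-fold, adjusted p = 4.61e-06) and by 1.85 ± 0.23 in GFP muscle (3.61-fold, adjusted p = 1.87e-05).

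Of the carnitine genes, Crat and Cpt2 rose in Crtc2 muscle, and Cpt1b passed with neither vector. Crat (chr2:30400471-30415813, minus strand) had 1033, 965 and 1032 CPM in ADF Crtc2 muscle against 663, 461 and 555 CPM in fed Crtc2 muscle. GFP muscle had 788, 728 and 612 CPM under ADF against 424, 665 and 491 CPM when fed. The 3 ADF Crtc2 libraries lay closely together above all 9 others, and the diets overlapped in GFP muscle. Crat rose by 0.85 ± 0.19 in Crtc2 muscle (adjusted p = 0.00401) and over both vectors by 0.64 ± 0.13 (adjusted p = 0.00123); in GFP muscle its log2 fold change was 0.43 ± 0.18 (adjusted p = 0.194, 95% interval 0.05 to 0.81).

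Cpt2 (chr4:107903981-107923610, minus strand) had 117, 107 and 146 CPM in ADF Crtc2 muscle against 74.6, 77.2 and 71.2 CPM in fed Crtc2 muscle, with no overlap. With GFP, Cpt2 had 96.7, 113 and 83.8 CPM under ADF against 68.5, 99.9 and 109.0 CPM when fed, and the diets overlapped. Cpt2 rose in Crtc2 muscle by 0.73 ± 0.21 (adjusted p = 0.0261). That call was lost without ADF Crtc2 replicates 1 and 3 (adjusted p = 0.0602 and 0.153) and without fed Crtc2 replicates 1, 2 and 3 (0.0729, 0.0578 and 0.0793). In GFP muscle the log2 fold change was 0.08 ± 0.21 (adjusted p = 0.911, 95% interval -0.35 to 0.52), and -0.03 with scaling to library totals. Over both vectors Cpt2 did not pass (0.41 ± 0.15, adjusted p = 0.0611), though it did without fed GFP replicate 3 (adjusted p = 0.0392).

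Cpt1b (chr15:89416405-89425863, minus strand), the muscle form of the enzyme that malonyl-CoA inhibits, had 13.3, 11.2 and 8.78 CPM in ADF Crtc2 muscle against 8.41, 9.52 and 6.03 CPM in fed Crtc2 muscle. With GFP, Cpt1b had 12.9, 10.2 and 8.55 CPM under ADF against 5.91, 4.73 and 7.11 CPM when fed. The diets overlapped in Crtc2 muscle and did not in GFP muscle. No comparison passed for Cpt1b: the log2 fold change was 0.48 ± 0.52 in Crtc2 muscle (adjusted p = 0.667) and 0.83 ± 0.52 in GFP muscle (adjusted p = 0.411, 95% interval -0.25 to 1.92). In GENCODE release 21, 2744 of its 3372 exon bases (81.4%) are shared on the same strand with another gene model, Gm44502. Reads there can be left uncounted, so the level of Cpt1b is uncertain.

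Acacb and Mlycd, which make and break down malonyl-CoA, rose side by side. Acacb (chr5:114146535-114250761, plus strand) had 781, 587 and 583 CPM in ADF Crtc2 muscle against 169, 169 and 208 CPM in fed Crtc2 muscle. With GFP, Acacb had 599.8, 395 and 410.1 CPM under ADF against 163, 215 and 199 CPM when fed. No ADF library of Acacb overlapped a fed one, and the log2 fold change was 1.84 ± 0.20 in Crtc2 muscle (3.57-fold, adjusted p = 2.58e-06) and 1.29 ± 0.20 in GFP muscle (2.44-fold, adjusted p = 0.000199).

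Mlycd (chr8:119394878-119411102, plus strand) had 285, 247 and 323 CPM in ADF Crtc2 muscle against 106, 78.5 and 77.4 CPM in fed Crtc2 muscle. In GFP muscle it had 262, 175 and 166 CPM under ADF against 80.3, 81.4 and 102 CPM when fed. Again the diets did not overlap with either vector, and Mlycd rose by 1.71 ± 0.21 in Crtc2 muscle (3.27-fold, adjusted p = 1.23e-05) and by 1.19 ± 0.21 in GFP muscle (2.29-fold, adjusted p = 0.000814). The ratio of Mlycd to Acacb counts within a library, which does not depend on scaling, averaged -1.19 ± 0.30 in ADF Crtc2 muscle, -1.22 ± 0.07 in ADF GFP muscle, -1.07 ± 0.38 in fed Crtc2 muscle and -1.13 ± 0.24 in fed GFP muscle (log2, SD, n = 3 each). The 4 groups overlapped in this ratio. It was not tested, and a ratio of RNA counts is no measure of malonyl-CoA.

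**Figure D3:**
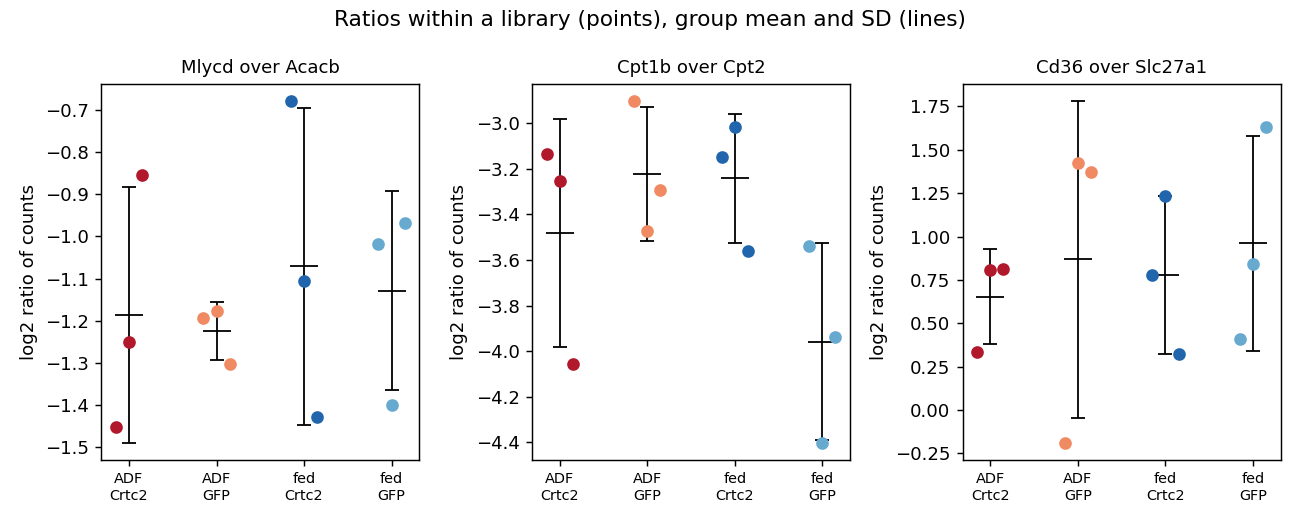
Log2 ratio of counts of Mlycd over Acacb, Cpt1b over Cpt2 and Cd36 over Slc27a1 in each library (points), with group mean and SD (lines), for ADF Crtc2, ADF GFP, fed Crtc2 and fed GFP muscle. The group means of Mlycd over Acacb lie between -1.22 and -1.07, and the groups overlap.

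The ratio of Cd36 to Slc27a1, the uptake proteins, overlapped between the diets in the same way, with group means from 0.65 ± 0.27 in ADF Crtc2 muscle to 0.96 ± 0.62 in fed GFP muscle (log2, SD, n = 3). The ratio of Cpt1b to Cpt2 averaged -3.48 ± 0.50 in ADF Crtc2 muscle against -3.24 ± 0.28 in fed Crtc2 muscle. In GFP muscle that ratio averaged -3.22 ± 0.29 under ADF against -3.96 ± 0.43 when fed, and there all 3 ADF libraries lay above the 3 fed ones. None of these ratios was tested, and those with Cpt1b carry the uncertainty of its level.

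Compared with the diet, the vector gave no call in the set. In fed muscle 0 of the 9 genes passed between Crtc2 and GFP (0% of all genes did), and 0 had an unadjusted p under 0.05. Slc27a1 alone of the 9 had all fed Crtc2 libraries above all fed GFP ones, as 4.7% of all genes had, with a log2 fold change of 0.30 ± 0.24 (95% interval -0.19 to 0.79). Under ADF 0 of the 9 passed (0.725% of all genes did), and over both diets 0 passed (0.494%). At an unadjusted p under 0.05 there were 4 genes under ADF, Crat, Fabp3, Acacb and Mlycd, where 11.3% of all genes were, and 1 over both diets, Crat, where 10.1% were. DESeq2 called 0 of the 9 in each of these comparisons. Of all genes it called 64 in fed muscle, 556 under ADF and 360 over both diets. Under ADF all 9 log2 fold changes were above 0, with a median of 0.34 beside -0.01 over all genes, but those of Cd36 and Cpt1b were below 0 with scaling to library totals (-0.15 and -0.12). That scaling lowered the median of all genes in this comparison by 0.20.

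The 4 genes had log2 fold changes of similar size under ADF. Crat averaged 1010 ± 38.7 CPM in ADF Crtc2 muscle and 709 ± 89.5 CPM in ADF GFP muscle (SD, n = 3 each), and the groups did not overlap. Its log2 fold change was 0.51 ± 0.19 (adjusted p = 0.274, 95% interval 0.13 to 0.89). Fabp3 averaged 689 ± 114 CPM against 479 ± 106 CPM, also without overlap, and its log2 fold change was 0.52 ± 0.20 (adjusted p = 0.326, interval 0.10 to 0.95). These were the 2 genes of the 9 without overlap, which 9.6% of all genes were in that direction. Mlycd differed by 0.50 ± 0.21 (adjusted p = 0.347, interval 0.08 to 0.93) and Acacb by 0.47 ± 0.19 (adjusted p = 0.347, interval 0.07 to 0.87), both with overlapping libraries. For Fabp3 the value was 0.30 with the correction for exon length. The interval for Acsl1 was -0.21 to 0.70, and that for Cd36, -0.67 to 0.84, leaves room for changes in either direction.

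Whether ADF acted differently with the vectors was tested as an interaction, the Crtc2 log2 fold change under ADF minus that in fed muscle. None of the 9 genes passed with edgeR (0% of all genes did) or with DESeq2 (111 of all genes did). The larger number of calls in Crtc2 muscle is therefore not shown to be a difference between vectors. At an unadjusted p under 0.05 there were 2 of the 9 genes, where 7.75% of all genes were. Fabp3 had an interaction of 0.76 ± 0.29 (adjusted p = 0.567, 95% interval 0.16 to 1.36), and Cpt2 one of 0.65 ± 0.30 (adjusted p = 0.622, interval 0.04 to 1.27). For both genes Crtc2 muscle was higher than GFP muscle under ADF and lower than GFP muscle when fed, on average. The correction for exon length raised the Fabp3 log2 fold change in GFP muscle, a part of this interaction, to 0.71. Over 7788 genes the interaction had a Spearman correlation of -0.16 with exon length. The trend was not confined to it. The correlation was -0.19 for Crtc2 against GFP under ADF. For ADF against fed it was 0.17 in GFP muscle and 0.05 in Crtc2 muscle. Acacb, at 0.55 ± 0.27, had an interval of -0.01 to 1.12.

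Per length of exon, Fabp3 had the highest mean level of the set in all 4 groups, while the place of Cpt1b depended on the length used for it. Fabp3 had 837 CPM per kilobase in ADF Crtc2 muscle, 582 in ADF GFP muscle, 409.6 in fed Crtc2 muscle and 481 in fed GFP muscle, followed by Crat with 188, 132, 104 and 97.8 in the same groups. In fed muscle Cpt2 came next with 31.1 (Crtc2) and 38.7 (GFP) CPM per kilobase, while Mlycd, at 29.4 and 29.6, and Cd36, at 27.1 and 26.1, lay within the spread of one another. Under ADF Mlycd, with 96.0 (Crtc2) and 67.8 (GFP) CPM per kilobase, had moved ahead of Cpt2, with 51.7 and 40.9. On average, Acsl1 and Acacb had 14.1 and 18.9 CPM per kilobase in fed Crtc2 muscle, below Cpt2, and 56.3 and 67.5 in ADF Crtc2 muscle, above it. Cpt1b had 3.296, 3.13, 2.37 and 1.75 CPM per kilobase, below Slc27a1 with 25.8, 20.5, 9.40 and 7.64 in the same groups. With only its unshared exon bases as its length, Cpt1b had 17.7, 16.8, 12.7 and 9.42 CPM per kilobase, below Slc27a1 under ADF and above it in both fed groups. That length would apply only if no read in the shared bases was counted, which is not known.

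**Figure D4:**
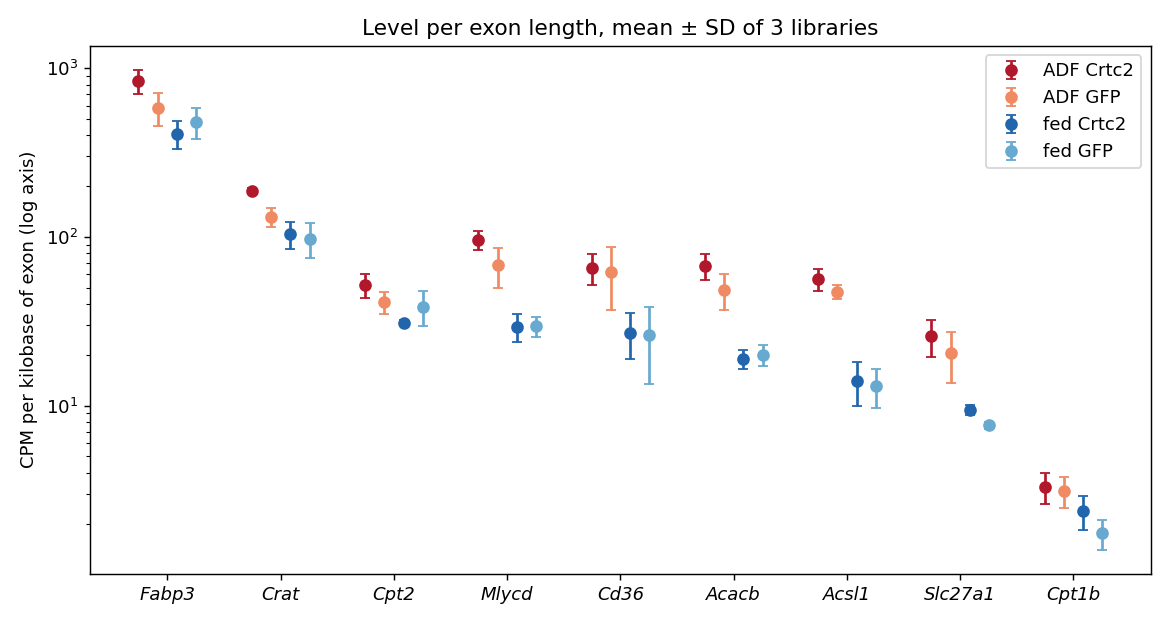
CPM per kilobase of exon (log axis), mean ± SD of 3 libraries, for the 9 genes in ADF Crtc2, ADF GFP, fed Crtc2 and fed GFP muscle, with genes in order of their fed level. Fabp3 and Crat lead in every group, and Mlycd passes Cpt2 under ADF. Cpt1b is lowest with the full exon length drawn here, though not in fed muscle when the same CPM is divided by its unshared length only.

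Other genes of the pathway were taken from lists that leave out the 9, and no list was tested as a set. For every list, the shares over all genes were 6.3% higher and 4.68% lower in Crtc2 muscle. They were 4.06% and 3.06% in GFP muscle, and 9.38% and 8.64% over both vectors. The median of all genes was -0.13 in Crtc2 muscle and -0.01 in GFP muscle. Of 14 tested genes for further uptake and binding, 3 rose and 2 fell under ADF in Crtc2 muscle, and 3 rose and 0 fell in GFP muscle, with median log2 fold changes of -0.29 and 0.17. Over both vectors 4 rose and 3 fell. Vldlr, the very low density lipoprotein receptor, rose by 1.35 ± 0.14 over both vectors (adjusted p = 5.41e-07), and Lpl, the lipase that frees fatty acids from circulating triglyceride, by 1.06 ± 0.14 (adjusted p = 1.67e-05). Got2, a mitochondrial transaminase also described as a fatty acid binding protein of the plasma membrane, rose by 0.84 ± 0.15 (adjusted p = 0.000446).

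Of 14 genes for activation and thioesters, 2 rose and 1 fell in Crtc2 muscle, and 1 rose and 1 fell in GFP muscle. Acot2, the mitochondrial acyl-CoA thioesterase, rose by 1.93 ± 0.24 over both vectors (adjusted p = 5.75e-06), and Acss1, the mitochondrial acetyl-CoA synthetase, by 1.66 ± 0.37 (adjusted p = 0.00431). Acsl5, another long-chain synthetase, averaged 4.09 ± 1.79 CPM in ADF Crtc2 muscle against 15.3 ± 0.763 CPM in fed Crtc2 muscle, and fell there by 1.91 ± 0.50 on the log2 scale (adjusted p = 0.0144). Acsl1 and Acsl5 thus passed in opposite directions in Crtc2 muscle.

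In the carnitine system, 1 of 7 tested genes rose in Crtc2 muscle and 1 in GFP muscle, and 0 fell in either. That gene was Slc25a20, the carnitine-acylcarnitine carrier that stands between Cpt1 and Cpt2, with 174 ± 13.4 CPM in ADF Crtc2 muscle against 77.1 ± 24.6 CPM in fed Crtc2 muscle. In GFP muscle Slc25a20 averaged 132 ± 20.98 CPM under ADF against 70.5 ± 1.89 CPM when fed (SD, n = 3 each). It rose by 1.17 ± 0.22 in Crtc2 muscle (adjusted p = 0.00104) and by 0.91 ± 0.22 in GFP muscle (adjusted p = 0.0122), both above the values for Cpt2 in the same comparisons. That difference between genes was not tested. Aldh9a1, an aldehyde dehydrogenase of carnitine synthesis, passed only over both vectors among the diet comparisons, where it fell by 1.13 ± 0.37 on the log2 scale (adjusted p = 0.0341).

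Of 15 genes for malonyl-CoA synthesis and its control by AMP-activated kinase (AMPK), which phosphorylates and inhibits Acacb, 3 rose and 2 fell in Crtc2 muscle, and 1 rose and 1 fell in GFP muscle. The subunits of the kinase moved in different directions. Prkag3, the gamma subunit found in fast glycolytic muscle, averaged 71.7 ± 8.29 CPM in ADF Crtc2 muscle against 273 ± 98.4 CPM in fed Crtc2 muscle, and fell by 2.01 ± 0.18 on the log2 scale over both vectors (adjusted p = 6.14e-08). Prkaa2, the catalytic subunit of skeletal muscle, rose by 1.16 ± 0.21 (adjusted p = 0.000666), and Prkab2, the muscle beta subunit, by 1.24 ± 0.22 (adjusted p = 0.000776).

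Of 15 genes for PPAR receptors and their partners, which drive many fatty acid oxidation genes, 5 rose in Crtc2 muscle, 2 in GFP muscle and 8 over both vectors, and 0 fell. Their median log2 fold change was 0.80 in Crtc2 muscle and 0.55 in GFP muscle, beside -0.13 and -0.01 over all genes. Ppard, the main PPAR of skeletal muscle, averaged 46.4 ± 14.7 CPM in ADF Crtc2 muscle against 17.7 ± 5.56 CPM in fed Crtc2 muscle, and rose by 1.38 ± 0.23 over both vectors (adjusted p = 0.000198). Foxo3, a transcription factor of fasting muscle, rose by 1.13 ± 0.22 (adjusted p = 0.000955), and Rxra, the receptor that pairs with PPARs, by 1.16 ± 0.23 (adjusted p = 0.00129). None of the 5 lists had a call between Crtc2 and GFP muscle, in either diet, over both diets or in the interaction. Of all genes, 0.725% passed under ADF, 0.494% over both diets, and 0% in fed muscle or in the interaction.

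**Figure D5:**
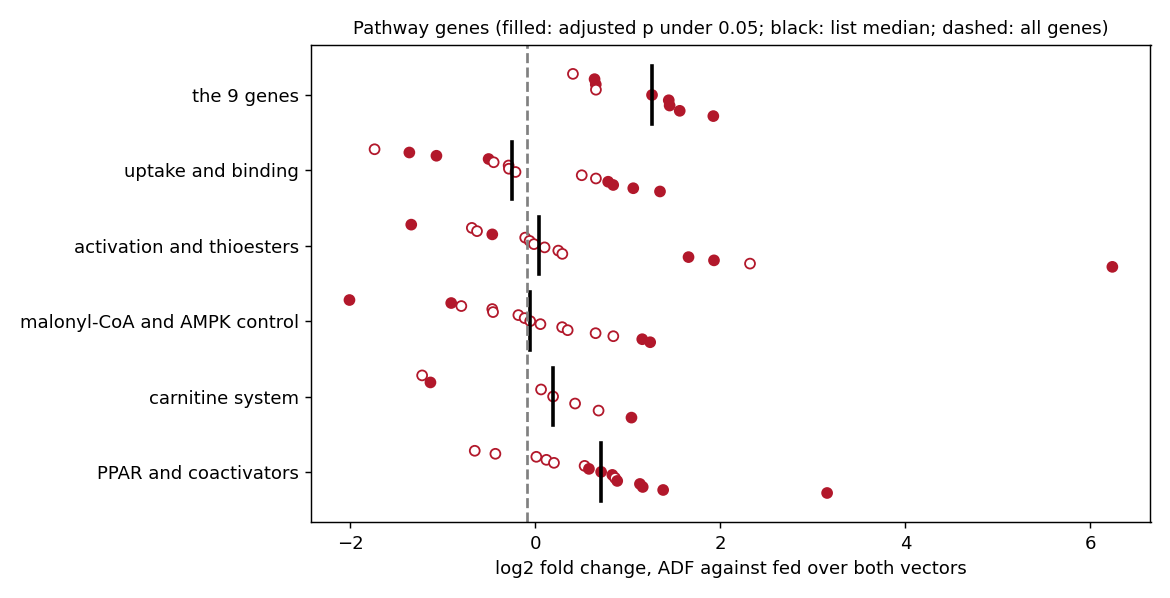
Log2 fold changes over both vectors, ADF against fed, for the tested genes of each list of other pathway genes and for the 9 genes described here (points; filled for adjusted p under 0.05), with the list median as a black line and that of all genes dashed. The 9 genes are all above 0 with 7 filled, while the uptake, activation, malonyl-CoA and carnitine lists have filled points on both sides of 0.

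Other cell types of the muscle also express some of these genes, among them adipocytes (Cd36, Acsl1, Acacb) and endothelium and macrophages (Cd36). In bulk RNA, fewer cells of a type and less RNA per cell cannot be told apart. Beside the marker counts below, 9.38% of all genes rose and 8.64% fell under ADF over both vectors. Between Crtc2 and GFP, 0.725% of all genes passed under ADF, 0% in fed muscle and 0.494% over both diets, in either direction. The summed level of 8 adipocyte markers was 53.4 to 100 CPM in ADF Crtc2 muscle against 25.6 to 36.2 CPM in fed Crtc2 muscle, and 64.9 to 82.3 CPM in ADF GFP muscle against 26.7 to 33.5 CPM in fed GFP muscle. Of the 7 tested, 2 rose over both vectors, Lipe, which muscle fibres also express, and Cfd. Lep was at 0 in 11 of the 12 libraries, Plin1 in 5 and Adipoq in 3. Of 8 endothelial markers 3 fell over both vectors and 0 rose, with sums of 274 to 340.0 CPM in ADF Crtc2 muscle against 474 to 669 CPM in fed Crtc2 muscle, and 334 to 502 CPM in ADF GFP muscle against 350.1 to 719 CPM in fed GFP muscle. Macrophage markers summed to 161 to 247 CPM in ADF Crtc2 muscle against 456 to 711 CPM in ADF GFP muscle, where 3 of 8 passed as lower. Fed muscle had 197.6 to 272.2 CPM with Crtc2 against 328.9 to 387.9 CPM with GFP, where 0 of 8 passed. Over both diets 3 of 8 passed as lower. Cd163, at low counts, was higher with Crtc2 under ADF on average (3.856 against 1.336 CPM). Slow fibre markers summed to 188 to 265 CPM in ADF Crtc2 muscle against 289 to 589 CPM in fed Crtc2 muscle, and 322 to 407 CPM in ADF GFP muscle against 363 to 674 CPM in fed GFP muscle. Of these 8, 4 fell under ADF over both vectors, Tnnt1, Tnnc1, Tnni1 and Casq2 (list median -0.70), and 2, Tnnt1 and Tnni1, were lower with Crtc2 than with GFP under ADF (list median -1.02). The largest part of the fed Crtc2 sum was Myl3, with a mean of 247.5 CPM there. Myl3 averaged 92.91 CPM in ADF Crtc2, 84.95 CPM in fed GFP and 90.02 CPM in ADF GFP muscle. In fed muscle Myl3 was thus higher with Crtc2 on average, while Tnnt1, Tnni1 and Tnnc1 were lower. Fibroblast markers summed to 794 to 1228 CPM in ADF Crtc2 muscle against 1647 to 3473 CPM in ADF GFP muscle, and 0 of 6 passed there (list median -1.17). In fed muscle their sums overlapped, at 580.6 to 1704 CPM with Crtc2 against 766 to 2044 CPM with GFP (list median -0.42, 0 of 6 passed). The single markers named here were picked out after their values were seen. The part of these cells and fibres in the results was not tested.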

How the data were processed

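Per the submitters' processing notes, HISAT2 2.0.5, SAMtools 1.7, featureCounts (Subread 1.6.1) and DESeq2 1.18.1 were used with GRCm38/mm10; strand setting and annotation release are not given in the sources used here. The authors deposited raw counts per Ensembl gene, and 0 columns belonged to no sample. Of 22607 genes, 16007 passed filterByExpr and were tested (R 4.3.3, edgeR 4.0.16, TMM scaling, robust quasi-likelihood fit, 4 group means over 12 libraries, unpaired). P-values were adjusted by Benjamini-Hochberg over all tested genes, with a threshold of 0.05. There were 7 comparisons. SE is the log2 fold change over the square root of F, and intervals are 95%. Levels per kilobase use exon lengths from GENCODE mouse release 21. The script was tested on simulated data. Members and lists were chosen with earlier results of these data known. The genes named are the 9 members, Crtc2, up to 3 genes per pathway list with the smallest adjusted p past the threshold for ADF against fed over both vectors, and, per member, the 2 genes of at least 10 CPM closest in log2 CPM (prior count 2). Alternatives were DESeq2 1.42.0, other scalings and filters, a length correction, a replicate block, fewer groups, halved counts and leaving out each library.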

Additional observations from a re-analysis of the deposited data

How the results depend on the processing

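The number of genes of the 9 past the threshold stayed within 1.5 times its value under every alternative run, at 4 to 5 in GFP muscle, 6 to 8 in Crtc2 muscle, 7 to 8 over both vectors and 0 in the other comparisons. All 20 calls kept their direction, and the 24 lost ones were all of Cd36 or Cpt2. Beside those given above, Cd36 lost its call in GFP muscle with scaling to totals (adjusted p = 0.139), median-of-ratios scaling (0.0569), a filter at a mean of 10 CPM (0.0557), only the groups compared (0.0686) and the length correction (0.0851), and in Crtc2 muscle with totals (0.169) and the length correction (0.0652). Cpt2 lost its call with totals (0.228). With the length correction and the replicate block, Cd36 in GFP and Crtc2 muscle (0.0859, 0.0683) and Cpt2 in Crtc2 muscle (0.0576) did not pass. Scaling to totals lowered the median of all genes by 0.29 in Crtc2 muscle and 0.19 over both vectors, and moved the share of higher genes among all calls from 57.4% to 29.3% and from 52% to 33.1%; in GFP muscle it moved from 57% to 44.4%.

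Values that changed sign were all of uncalled results. With totals these were Cpt2 in GFP muscle (-0.026), Cd36 and Cpt1b for the vector under ADF (-0.15, -0.12), Cd36 and Cpt2 for the vector over both diets (-0.0534, -0.0988), and Cd36, Slc27a1 and Acsl1 in the interaction (-0.19, -0.13, -0.0619). With the 10 CPM filter they were Cpt2 in GFP muscle (-0.0238) and for the vector over both diets (-0.0106). With the length correction they were Cpt2 for the vector over both diets (-0.0383) and Cd36 in the interaction (-0.0299). The cause was not tested. Leaving out each library gave, for the vector in fed muscle, Acacb -0.19 to 0.0054, Acsl1 -0.0793 to 0.32, Cd36 -0.21 to 0.50, Crat -0.0503 to 0.29 and Mlycd -0.17 to 0.11; under ADF, Cd36 -0.17 to 0.44 and Cpt1b -0.0793 to 0.25; over both diets, Cd36 -0.0651 to 0.29 and Cpt2 -0.0774 to 0.0774; for the interaction, Acsl1 -0.076 to 0.32, Cd36 -0.43 to 0.38 and Slc27a1 -0.19 to 0.29; and Cpt2 in GFP muscle -0.0927 to 0.22.

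The replicate numbers gave no sign of pairing within the groups compared. Same-numbered libraries had correlations of -0.12 to 0.09 there, with 0 of 3 pairs over 0.1 in each comparison. Across all groups the 18 same-numbered pairs ran from -0.12 to 0.31, the highest being ADF GFP and fed Crtc2 replicate 2. The 36 other pairs ran from -0.27 to 0.19. So few pairs, matched by number only, cannot show whether muscles share animals. With the replicate block the counts were 8 in Crtc2 muscle, 5 in GFP muscle, 7 over both vectors and 0 elsewhere. With block and length correction, Cpt2 for the vector over both diets was -0.029 and Cd36 in the interaction -0.0441.

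Over all genes, Crtc2 against GFP under ADF gave 116 calls with edgeR, 556 with DESeq2, 385 without a filter, 300 with only its groups fitted, and 25 to 69 without ADF Crtc2 replicate 1 or 3 or ADF GFP replicate 1 or 3. In fed muscle the counts under the first 4 of these settings were 0, 64, 58 and 7. Without fed GFP replicate 2 or fed Crtc2 replicate 3 the fed count was 18 or 5. Over both diets they were 79, 360 and 344 under the first 3, with 42 without ADF GFP replicate 3 or ADF Crtc2 replicate 1, 43 without fed Crtc2 replicate 1 and 148 without fed GFP replicate 2. For the interaction they were 0, 111 and 67, and 0 to 3 when each library was left out. ADF against fed gave 1758 in Crtc2 muscle, and 1129 without ADF Crtc2 replicate 1; in GFP muscle it gave 1140, and 677, 711 and 740 without ADF GFP replicates 2, 1 and 3.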

Other observations

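The genes whose profiles lay nearest to each member over the 12 libraries were found by the root mean square difference of centred log2 CPM, among 7499 genes of at least 10 CPM. Acsl1 was nearest to Tacc2 (0.25) and to Pnpla2, the adipose triglyceride lipase (0.26). Slc27a1 was nearest to Acads, the short-chain acyl-CoA dehydrogenase (0.18), and Gys1, muscle glycogen synthase (0.20). Fabp3 was nearest to Vegfb (0.17) and to Eci2, an enoyl-CoA isomerase (0.18). Mlycd was nearest to Nrap (0.21) and to Slc27a1, itself one of the 9 (0.22). Acacb was nearest to Rbl2 (0.15) and to Cacna1s, the calcium channel of the muscle triad (0.16). Cd36 was nearest to Klhl24 and Cacna2d1 (0.29 each), Cpt2 to Apoo and Ptcd3 (0.15 each), and Crat to Poldip2 and Tbc1d22a (0.13 each). Cpt1b was nearest to Fyco1 (0.19) and Lmcd1 (0.21). The median difference over all those genes was 0.55 to 1.07, depending on the member. All values come from the same 12 libraries, so they describe these profiles only.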
